A study of Mus musculus with 16 samples.

Results

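The comparison described here is that of CD144 positive with CD144 negative cells sorted from differentiating mouse embryonic stem cells at day 3.5. Its members were chosen by their sample labels and are 4 of the 16 arrays of the series, 2 from CD144 positive cells and 2 from CD144 negative cells. CCE embryonic stem cells, a mouse line kept on irradiated fibroblast feeders with the cytokine LIF, were separated from the feeders and allowed to differentiate without LIF as embryoid bodies, floating aggregates in which the early germ layers form. The bodies were dissociated, and the cells were fixed in ethanol and acetic acid before they were stained with an antibody to VE-cadherin and sorted, so that both populations were fixed cells of 1 line, with no transgene or further treatment described. The other 12 arrays hold positive and negative cells sorted from untreated bodies of the same line, 2 arrays of each population, with CD41 in place of CD144 on the same day, with CD144 on day 6.5 and with VEGFR2 on day 2.5.

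CD144 is VE-cadherin, the product of Cdh5, and is the calcium-dependent adhesion molecule of the junctions between endothelial cells. In the embryo and in embryoid bodies, blood and endothelium arise from mesoderm that expresses VEGF-R2, and VE-cadherin appears on the cells that take the endothelial path, some of which can also give rise to blood. The study refers to the CD144 positive cells of day 3.5 as angioblasts and describes staining for VEGF-R2 beside VE-cadherin, while the labels name CD144 only. The CD144 negative population, cells without CD144 by its label, is a mixture, and the RNA is that of bulk populations, in which fewer cells of a type and less RNA per cell cannot be told apart. The duplicates are described as coming from separate experiments, although the labels do not say which arrays belong to the same experiment.

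Expression was measured as MAS5 signal, a linear intensity that summarises the probes of a probe set after each array was scaled to a common trimmed mean. Signal intensities of different probe sets are on different scales and were not compared with each other. Sums of signal over a list are given as descriptions only, and the brightest probe sets weigh most in them. Fold changes are given as log2 of signal plus 6.03, CD144 positive over CD144 negative, with the standard error (SE) of the fit in limma, and a probe set was called where its Benjamini-Hochberg adjusted p lay under 0.05. The hybridisation controls read 6442 and 9079 on the CD144 positive arrays, against 2263 and 2307 on the CD144 negative arrays, and the 100 brightest probe sets held 13.1 and 16.3% of the summed signal of CD144 positive cells, against 7.90 and 8.22% in CD144 negative cells. The ratio of 3′ to 5′ signal of the actin control, a sign of RNA integrity, was 2.01 and 2.83 in CD144 positive cells and 1.77 and 2.09 in CD144 negative cells. Replicates correlated at a Spearman rho of 0.882 for the CD144 positive pair and 0.9525 for the CD144 negative pair, over all probe sets tested. The part of these array differences in the results below was not tested except where the quantile-normalised values are given.

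The sorted protein was checked first at the level of its RNA. Cdh5 had signals of 2086 and 1863 in CD144 positive cells, against 38.3 and 20.5 in CD144 negative cells. Its log2 fold change was 5.85 with an SE of 0.35 (limma adjusted p = 1.28e-08), and the labels of the populations thus held for the gene used to sort them. A further probe set of Cdh5 was not called, with a log2 fold change of 0.49.

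Across 45037 probe sets, 4275 (9.49%) were higher and 4748 (10.5%) were lower in CD144 positive than in CD144 negative cells. The count of 9023 fell to 5854 without CD144 positive replicate 2, to 4675 without CD144 negative replicate 1 and to 5450 without CD144 negative replicate 2. By a criterion closer to that of the study, a 90% interval that lies wholly beyond a fold of 2, 1386 probe sets (3.08%) were higher and 1538 (3.41%) were lower. When each gene was represented by the probe set with its highest mean signal, 2488 of 18193 genes (13.7%) were higher and 1878 (10.3%) were lower, with a median log2 fold change of 0.167, and the counts in gene lists below are read against these shares. With 2 arrays against 2, an exact permutation test of a single gene cannot go below p = 0.333 (two-sided), and every call rests on the spread shared across the fit of all 16 arrays.

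**Figure D1:**
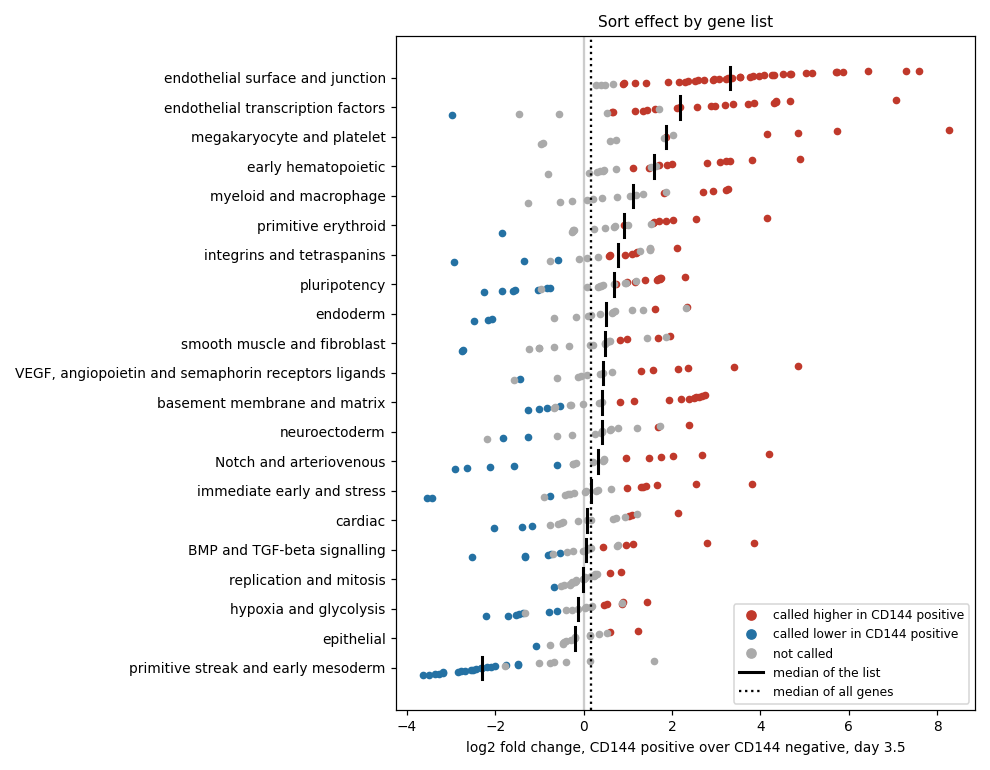
Log2 fold change of CD144 positive over CD144 negative cells at day 3.5 (horizontal axis) for each measured gene of the lists used here, 1 point per gene, coloured by its call. The black bars mark list medians, which run from -2.31 for primitive streak and early mesoderm genes to 3.31 for endothelial surface and junction genes, and the dotted line marks the median of all genes at 0.167.

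Of 40 endothelial surface and junction genes, 36 were higher in CD144 positive cells, 0 were lower and 4 were not called, with a median log2 fold change of 3.31. At an unadjusted p under 0.05 the lower genes were also 0 in limma. The summed signal of the list was 77410 and 84263 in CD144 positive cells, against 19289 and 19371 in CD144 negative cells. Aplnr alone, which was not called, made up 12810 and 13006 of the CD144 negative sums. The study named Tie1, Cd34 and Emcn from comparisons that held the CD144 positive arrays of day 3.5, so the direction of the list is not independent of it.

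Promoters of genes with some of the largest changes in this list and, for Erg, in the list of transcription factors below are shown because the genes moved together. The windows cover 250 bases before to 50 bases after the start of each gene and were taken from RefSeq on GRCm38.p6. The windows of Tie1 at chr4:118489800-118490099 and of Erg at chr16:95586544-95586843, the first of 3 starts listed for Erg, lie on the minus strand. Those of Tek at chr4:94739039-94739338, Cd34 at chr1:194938571-194938870 and Emcn at chr3:137340828-137341127 lie on the plus strand. In the order in which they were looked up 5 genes matched the table, and Cdh5, Icam2, Lyve1, Esam and Mmrn2 are named only. Capitals mark matches, on either strand, to 4 sets of letters: AGGAAG, the core bound by ETS factors; GATAA, that of GATA factors; GTAAACA, a forkhead motif; and ACAAT, the core bound by Sox factors.
Tie1: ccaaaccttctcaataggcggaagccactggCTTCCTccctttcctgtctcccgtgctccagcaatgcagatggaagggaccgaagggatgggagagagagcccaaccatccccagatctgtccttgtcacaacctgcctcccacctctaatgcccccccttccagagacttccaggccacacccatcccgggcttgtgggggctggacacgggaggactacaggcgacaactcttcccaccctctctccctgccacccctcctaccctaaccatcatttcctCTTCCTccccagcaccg
Erg: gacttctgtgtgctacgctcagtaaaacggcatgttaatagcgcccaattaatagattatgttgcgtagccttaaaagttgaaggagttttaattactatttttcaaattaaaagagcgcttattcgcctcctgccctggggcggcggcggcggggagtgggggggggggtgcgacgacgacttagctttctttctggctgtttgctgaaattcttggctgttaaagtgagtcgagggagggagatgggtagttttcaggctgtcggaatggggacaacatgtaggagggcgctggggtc
Tek: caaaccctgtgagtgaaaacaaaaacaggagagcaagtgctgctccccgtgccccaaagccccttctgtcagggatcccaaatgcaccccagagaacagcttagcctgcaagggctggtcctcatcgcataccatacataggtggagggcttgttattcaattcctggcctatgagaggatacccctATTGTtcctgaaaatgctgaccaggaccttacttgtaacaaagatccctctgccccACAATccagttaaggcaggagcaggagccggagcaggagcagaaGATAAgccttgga
Cd34: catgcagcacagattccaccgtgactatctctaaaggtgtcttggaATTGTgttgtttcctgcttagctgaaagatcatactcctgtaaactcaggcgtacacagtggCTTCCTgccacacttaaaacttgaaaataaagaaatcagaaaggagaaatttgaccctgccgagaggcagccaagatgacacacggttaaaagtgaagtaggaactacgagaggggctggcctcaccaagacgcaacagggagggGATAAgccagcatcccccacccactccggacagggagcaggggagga
Emcn: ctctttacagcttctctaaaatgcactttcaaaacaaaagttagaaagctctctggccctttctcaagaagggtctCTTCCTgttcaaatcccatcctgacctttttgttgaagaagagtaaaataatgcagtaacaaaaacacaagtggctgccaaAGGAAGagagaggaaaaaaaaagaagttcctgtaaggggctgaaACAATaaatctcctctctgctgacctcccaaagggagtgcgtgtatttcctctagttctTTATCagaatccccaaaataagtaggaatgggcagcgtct

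AGGAAG was found in 3 of the 5 windows shown and in 35.4% of all 32851 windows of the same length, GATAA in 3 windows and in 25.4%, and ACAAT in 3 windows and in 31% of all. GTAAACA was found in 0 of the 5 windows, against 3.65% of all. No matches overlapped one another, and a match describes letters in the window only.

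Tie1, an orphan receptor of the angiopoietin system, had signals of 1327 and 1384 in CD144 positive cells, against 3.55 and 1.75 in CD144 negative cells. Its log2 fold change was 7.30 ± 0.34 (SE, adjusted p = 7.37e-10). Tek, which encodes Tie2, the receptor of the angiopoietins, gave 2207 and 1964 in CD144 positive cells, against 25.9 and 41.5 in CD144 negative cells. Both receptors thus lay more than an order of magnitude apart between the populations. Icam2, an adhesion molecule of endothelium and platelets, had signals of 2695 and 2842 in CD144 positive cells and 15.2 and 3.69 in CD144 negative cells, a log2 fold change of 7.59 ± 0.57. Cd34, a sialomucin of endothelial and blood progenitors, gave 1695 and 1651 in CD144 positive cells and 36.9 and 44.5 in CD144 negative cells. Emcn, another sialomucin of endothelium, was less even between replicates, at 986 and 528 in CD144 positive cells, against 13.9 and 19.0 in CD144 negative cells.

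Receptors and enzymes of mature endothelium followed with intermediate changes. Nos3, the endothelial nitric oxide synthase, had signals of 1730 and 1910 in CD144 positive cells and 166 and 136 in CD144 negative cells, a log2 fold change of 3.54 ± 0.31. Pecam1, the junctional molecule CD31, gave 729 and 531 in CD144 positive cells, against 55.3 and 66.9 in CD144 negative cells, and Cldn5, a tight junction claudin, 1086 and 1034 against 84.5 and 55.7. Vwf, the von Willebrand factor, gave 291 and 295 in CD144 positive cells, against 19.0 and 20.2 in CD144 negative cells. Ramp2, which with Calcrl forms the receptor of adrenomedullin, reached 14117 and 17206 in CD144 positive cells and 561 and 635 in CD144 negative cells. Robo4, a guidance receptor of vessels, was higher by 2.37 ± 0.38, with 351 and 409 in CD144 positive cells and 68.4 and 68.1 in CD144 negative cells.

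The receptors of VEGF had smaller fold changes. Kdr, which encodes VEGF-R2, had signals of 4066 and 3691 in CD144 positive cells, against 1001 and 740 in CD144 negative cells, and its log2 fold change was 2.16 ± 0.27 (adjusted p = 2.79e-05). Kdr transcripts were thus measured in both populations. Flt4, the receptor of VEGF-C, was higher by 1.90 ± 0.26 and Flt1, VEGF-R1, by 1.16 ± 0.21, with 1410 and 1425 in CD144 positive cells and 760 and 521 in CD144 negative cells. Efna1, an ephrin ligand, was higher by 1.41 ± 0.42 (adjusted p = 0.0235).

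The 4 genes of the list that were not called were Clec14a, Stab2, Cd109 and Aplnr. Aplnr, the receptor of apelin, was bright in both populations, at 14417 and 17132 in CD144 positive cells and 12810 and 13006 in CD144 negative cells. Its log2 fold change was 0.28, with a 90% interval from -0.21 to 0.78. Clec14a and Stab2 stayed below 80 on all 4 arrays. The gene probe sets of Ednrb, the endothelin B receptor named by the study, went in opposite directions: of 3 probe sets, 1 was higher, with 289 and 250 in CD144 positive cells against 18.9 and 4.49 in CD144 negative cells, and 1 was lower, at a log2 fold change of -1.92.

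**Figure D2:**
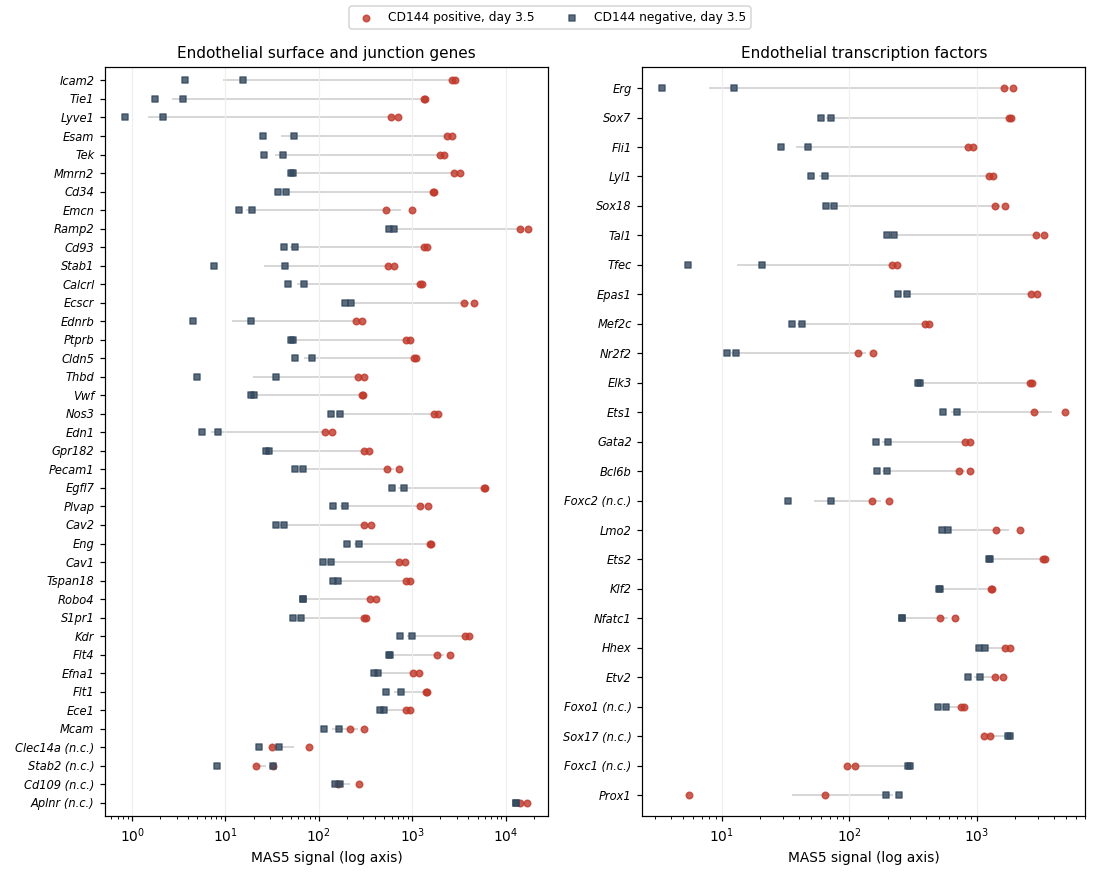
MAS5 signal on a log axis of endothelial surface and junction genes (left) and endothelial transcription factors (right), 1 point per array, with CD144 positive and CD144 negative cells at day 3.5 in 2 colours and n.c. after genes that were not called. Tie1 sits at 1327 and 1384 in CD144 positive cells and at 3.55 and 1.75 in CD144 negative cells, while Aplnr lies at 12810 or above on all 4 arrays.

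Of 25 transcription factors of endothelium and its precursors, 20 were higher, 1 was lower and 4 were not called, with a median log2 fold change of 2.19. Erg, an ETS factor of endothelium, had signals of 1615 and 1932 in CD144 positive cells and 3.44 and 12.4 in CD144 negative cells, a log2 fold change of 7.07 ± 0.37 (adjusted p = 2.9e-09). Fli1, the ETS factor most like it, gave 850 and 923 in CD144 positive cells, against 47.4 and 29.1 in CD144 negative cells. Other ETS factors with called increases were Elk3 at 2.89, Ets1 at 2.57, Ets2 at 1.43 and Etv2 at 0.64. Etv2, which acts early in the making of blood and endothelial precursors, had 1382 and 1587 in CD144 positive cells and 858 and 1048 in CD144 negative cells, the smallest of the called increases in the list.

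The SoxF genes, whose products act in endothelium, differed among themselves. Sox7 had signals of 1835 and 1794 in CD144 positive cells, against 59.5 and 71.9 in CD144 negative cells, and a further probe set was not called, at 0.04. Sox18 gave 1652 and 1377 in CD144 positive cells, against 76.5 and 65.5 in CD144 negative cells. Sox17 gave 1275 and 1138 in CD144 positive cells and 1758 and 1814 in CD144 negative cells. Its log2 fold change of -0.57 ± 0.28 was not called (limma adjusted p = 0.179, against 0.0147 when only the 2 populations compared were fitted). A further probe set of Sox17 was not called, at 0.12. Sox17 is also a gene of definitive endoderm, and the endoderm genes, which were called in both directions, are given below. Whether they bear on Sox17 was not tested.

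Factors shared between endothelium and blood were also higher. Tal1, a basic helix-loop-helix factor required for blood formation, had signals of 2882 and 3350 in CD144 positive cells, against 225 and 196 in CD144 negative cells. Lyl1, its close relative, was higher by 4.35 ± 0.22, Gata2 by 2.19 ± 0.23 and Lmo2, a bridge between these factors, by 1.62 ± 0.20. Of the factors named by the study, Klf2, induced by blood flow in mature endothelium, gave 1306 and 1277 in CD144 positive cells and 516 and 501 in CD144 negative cells, and Mef2c gave 391 and 423 against 42.3 and 35.3. Tfec, a helix-loop-helix leucine zipper factor, had 236 and 215 in CD144 positive cells and 5.48 and 20.7 in CD144 negative cells. Foxp1 was higher by 0.94 ± 0.17, with 1215 and 1459 in CD144 positive cells and 794 and 601 in CD144 negative cells, and 2 of its 8 probe sets were called. Sox11 was lower by the same test, with 871 and 706 in CD144 positive cells and 1990 and 1791 in CD144 negative cells (log2 fold change -1.26 ± 0.19, adjusted p = 0.00014). Of its 6 probe sets 2 were called, both lower, and the highest log2 fold change among them was 0.51. The probe set that carries the accession the study listed for Sox11 is annotated as Sox1 in the platform table used here, and it was higher, by 2.38 ± 0.79 (adjusted p = 0.0434). The factor of lymphatic endothelium, Prox1, was the 1 member of the list that fell, by 2.97 ± 0.78 on the log2 scale, and its call was lost without CD144 positive replicate 1 and without either CD144 negative replicate.

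Growth factors, guidance receptors and Notch genes were mixed. Of 15 VEGF, angiopoietin, semaphorin and related ligands and receptors, 6 were higher, 1 was lower and 8 were not called. Plxnd1, a semaphorin receptor of endothelium, had signals of 2317 and 1995 in CD144 positive cells, against 236 and 163 in CD144 negative cells, and the VEGF co-receptors Nrp2 and Nrp1 were higher by 2.37 and 1.29. Among ligands, Igf1 was higher by 4.86 ± 0.34, Pdgfb by 2.15 ± 0.28 and Vegfc by 1.57 ± 0.35, while Apln, the ligand of Aplnr, was lower by 1.44 on the log2 scale. Vegfa itself gave 617 and 521 in CD144 positive cells and 591 and 581 in CD144 negative cells, with a 90% interval of the log2 fold change from -0.37 to 0.27.

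Of 18 Notch and arteriovenous genes, 6 were higher and 5 were lower. The higher ones were Gja4, a connexin of arteries, the receptors Notch4 and Notch1, the ligand Dll4, and the targets Hey2 and Hey1. Gja4 had signals of 1193 and 1047 in CD144 positive cells, against 61.2 and 49.6 in CD144 negative cells. Notch4 gave 1010 and 1045 against 167 and 145 in the 1 of its 3 probe sets that was called. The lower ones were the ligands Jag1 and Dll1, the receptor Notch2, the target Hes1 and the chemokine receptor Cxcr4. Jag1 had 399 and 502 in CD144 positive cells and 2923 and 2689 in CD144 negative cells, a log2 fold change of -2.63 ± 0.16. Efnb2, the arterial ephrin, and its venous receptor Ephb4 were not called, at -0.24 and 0.47. The count of higher genes was 3 without CD144 negative replicate 2.

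The matrix that endothelium lays down was represented by 21 basement membrane and matrix genes, of which 10 were higher and 4 were lower. Sparc, a matricellular protein, had signals of 21516 and 22346 in CD144 positive cells and 3179 and 3293 in CD144 negative cells. The type IV collagen chains Col4a2 and Col4a1 were higher by 2.68 and 2.21, Col18a1, the precursor of endostatin, by 2.60 ± 0.18, and Nid1 by 2.55. The laminin chains Lamb1, Lama1 and Lama5 were lower by 0.82, 1.26 and 0.54 on the log2 scale, although Lama4, the laminin chain of endothelium, was higher by 1.94 ± 0.36. Fn1, fibronectin, gave 14426 and 14641 in CD144 positive cells and 14823 and 14538 in CD144 negative cells, a log2 fold change of -0.01 with a 90% interval from -0.22 to 0.19. The 4 decreases of the list were fewer without any 1 array, at 1 and 2 without CD144 positive replicates 1 and 2 and at 0 and 1 without CD144 negative replicates 1 and 2.

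Of 18 integrins and tetraspanins, 8 were higher and 3 were lower. Itga1, a collagen receptor chain, and Itga5, the fibronectin receptor chain, were higher by 2.12 and 1.51, and Itga8, Itgb1 and Itgav were lower. Itga1 was called in 1 of 2 probe sets and Itga5 in 1 of 4, with log2 fold changes of Itga5 down to -0.90. Itga8 had signals of 104 and 170 in CD144 positive cells, against 1012 and 1112 in CD144 negative cells. Of 21 BMP and TGF-beta genes, 5 were higher and 6 were lower. Acvrl1, the endothelial receptor ALK1, gave 367 and 502 in CD144 positive cells and 15.4 and 36.2 in CD144 negative cells. Tgfbr2 was higher by 2.80 ± 0.24, a call made in 1 of its 3 probe sets, the lowest of which was at 0.01. Bmp7, Bmp2, Smad1, Smad5, Bmpr1a and the BMP antagonist Nog were lower. The targets Id1, Id2 and Id3 were not called. The integrin increases numbered 4 without CD144 positive replicate 1 or either CD144 negative replicate, and the BMP and TGF-beta increases 3 without CD144 positive replicate 1 or CD144 negative replicate 2.

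Among early hematopoietic genes all calls were increases. Of 20 early hematopoietic genes 11 were higher and 0 were lower (1 at an unadjusted p under 0.05), with a median of 1.59. Cbfa2t3, a corepressor of the Tal1 complex, had signals of 824 and 1055 in CD144 positive cells and 26.0 and 24.7 in CD144 negative cells. Itga2b, the CD41 antigen by which the other day 3.5 population was sorted, gave 1632 and 1847 in CD144 positive cells, against 224 and 179 in CD144 negative cells, a log2 fold change of 3.08 ± 0.24. Spi1, a myeloid ETS factor, Gfi1b, Hoxb4, Ikzf2, Myb and Laptm5 were also higher. Runx1, required for definitive blood, gave 207 and 22.7 in CD144 positive cells and 48.8 and 52.8 in CD144 negative cells, so that its 2 CD144 positive arrays lay on either side of the CD144 negative ones. This probe set of Runx1 was not called in the CD41 sort either (0.84, limma adjusted p = 0.383). The study named AML-1, which is Runx1, as enriched in CD41 positive cells over VEGF-R2 positive cells of day 2.5. Other probe sets of Runx1 are not given here, so its direction as a gene was not settled. Ptprc, the pan-leukocyte antigen CD45, read 37.5 and 59.0 in CD144 positive cells and 5.85 and 18.2 in CD144 negative cells and was not called (adjusted p = 0.135).

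Of 19 primitive erythroid genes 8 were higher and 1, Ermap, was lower, with a median of 0.91. The call of Ermap was lost without any 1 of the 4 arrays. Nfe2, an erythroid and megakaryocytic factor, had signals of 310 and 412 in CD144 positive cells, against 13.5 and 15.5 in CD144 negative cells. Gata1, the main erythroid factor, was higher by 1.58 ± 0.30, and the embryonic globin gene Hbb-bh1 gave 2308 and 1946 against 720 and 582. Hbb-y, a further embryonic globin gene, was also higher, with 96.3 and 95.0 in CD144 positive cells and 19.5 and 24.9 in CD144 negative cells. Hba-x, another, was not called, with 236 and 214 in CD144 positive cells and 175 and 102 in CD144 negative cells. These values are small beside those of CD41 positive cells of the same day, in which Hba-x averaged 36552 and Hbb-bh1 52609.

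Of 11 megakaryocyte and platelet genes 5 were higher and 0 were lower, by the adjusted as by the unadjusted p. Clec1b, the platelet receptor CLEC-2, had signals of 4084 and 5484 in CD144 positive cells, against 20.2 and 2.98 in CD144 negative cells, a log2 fold change of 8.27 ± 0.57. Plek, Itgb3, Fermt3 and Pf4 were the others, at 5.73, 4.86, 4.15 and 1.86, and the platelet glycoproteins Gp9, Gp5 and Gp1bb were not called. A further probe set of Itgb3 was not called, at -0.09. Of 16 myeloid and macrophage genes 5 were higher and 0 were lower, again by either p. Mpo, myeloperoxidase, gave 261 and 329 in CD144 positive cells and 35.7 and 17.1 in CD144 negative cells, and Csf2rb, Tyrobp, Mrc1 and Cd52 were the others. The defining macrophage genes Csf1r, Adgre1, Cd68, C1qa and C1qb were not called. Cd68 gave 655 and 856 in CD144 positive cells and 1048 and 1126 in CD144 negative cells. C1qa read 2.74 and 11.8 in CD144 positive cells and 3.83 and 5.81 in CD144 negative cells, around the 10th percentile of all signals, 6.03. Detection calls were not used, so the presence of such dim transcripts was not tested.

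Streak and early mesoderm genes formed the list with the most decreases. Of 27 genes 0 were higher (also 0 at an unadjusted p under 0.05 in limma), 20 were lower and 7 were not called, with a median of -2.31. The summed signal was 8346 and 8418 in CD144 positive cells, against 45992 and 45492 in CD144 negative cells. Mixl1, a homeobox gene of the streak, had signals of 448 and 456 in CD144 positive cells and 4020 and 4310 in CD144 negative cells, a log2 fold change of -3.19 ± 0.21 (adjusted p = 5.14e-08). Eomes, a T-box factor of the streak, gave 939 and 905 in CD144 positive cells, against 5929 and 4995 in CD144 negative cells, and Lhx1, known also as Lim1, gave 611 and 461 against 5644 and 5376. The study named Mixl1, Lhx1, Evx1 and Gsc by setting VEGFR2 positive cells of day 2.5 against CD41 positive and CD144 positive cells of day 3.5, so this list too is not independent of it.

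Mesp1, which marks the first mesoderm of heart and vessels, fell to 343 and 419 in CD144 positive cells, against 1658 and 1857 in CD144 negative cells. Pdgfra, a receptor of paraxial and cardiac mesoderm, gave 97.3 and 100 in CD144 positive cells and 1329 and 1033 in CD144 negative cells. It was called in 1 of 3 probe sets, the highest of which was at 0.095. Among signals, Wnt5a fell by 3.64, Wnt3 by 3.17 and Fgf8 by 2.31 on the log2 scale, and so did Fst and Lefty2, antagonists of activin and Nodal, by 2.84 and 2.43. The values of the CD144 positive and CD144 negative arrays did not overlap in these genes, which were picked from the called decreases. The share of all probe sets without overlap was not counted, so this adds nothing to the calls. The 7 genes not called were Cdx1, Cdx4, Foxf1, Wnt3a, Hand1, Tbx6 and Msgn1.

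Pluripotency genes split in both directions. Of 27 genes 10 were higher, 7 were lower and 10 were not called, and the summed signal was 85769 and 94226 in CD144 positive cells and 91449 and 90587 in CD144 negative cells. Dppa3, also known as Stella, had signals of 1229 and 1397 in CD144 positive cells, against 233 and 291 in CD144 negative cells, a log2 fold change of 2.30 ± 0.30. Zfp42, also known as Rex1, gave 2523 and 2546 in CD144 positive cells and 1119 and 1151 in CD144 negative cells. Utf1, Klf4, Dnmt3l, Dppa4, Esrrb, Fgf4, Gdf3 and Nr0b1 were the other genes that were higher, and several of these are switched off as embryonic stem cells leave the naive state. Nanog, in contrast, had 3103 and 3279 in CD144 positive cells and 9794 and 9577 in CD144 negative cells, a log2 fold change of -1.60 ± 0.24 (adjusted p = 0.000162).

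With Nanog fell Lefty1, Tdgf1, Tbx3, Lin28a, Tet1 and Sall4. Lefty1, a Nodal antagonist, gave 1160 and 801 in CD144 positive cells and 4598 and 4680 in CD144 negative cells, and Tdgf1, the Nodal co-receptor Cripto, gave 5550 and 6242 against 16677 and 17813. Nanog, Lefty1 and Tdgf1 are also expressed in the primitive streak. Pou5f1, which encodes Oct4, had 10193 and 12561 in CD144 positive cells and 6675 and 4996 in CD144 negative cells and was not called, with a 90% interval of its log2 fold change from 0.21 to 1.73. Sox2 was not called either, at 4491 and 4660 in CD144 positive cells and 2921 and 2736 in CD144 negative cells.

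**Figure D3:**
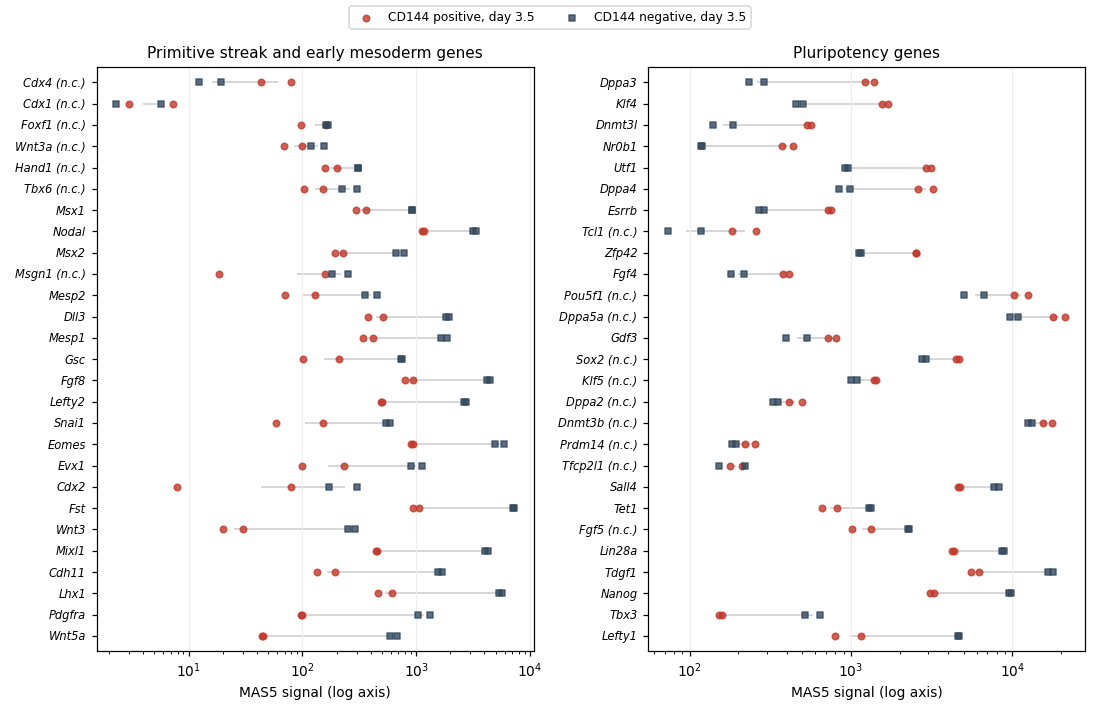
MAS5 signal on a log axis of primitive streak and early mesoderm genes (left) and pluripotency genes (right), 1 point per array, with CD144 positive and CD144 negative cells at day 3.5 in 2 colours and n.c. after genes that were not called. Mixl1 lies at 448 and 456 in CD144 positive cells and at 4020 and 4310 in CD144 negative cells, whereas Dppa3 lies at 1229 and 1397 in CD144 positive cells and at 233 and 291 in CD144 negative cells.

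Epithelial genes, which undifferentiated cells also express, gave few calls. Of 16 genes 2, Rab25 and Krt18, were higher and 1, Esrp1, was lower, and these increases numbered 1 or 0 without any 1 array. The summed signal was 46078 and 44414 in CD144 positive cells and 45114 and 45641 in CD144 negative cells. Cdh1, E-cadherin, had signals of 8774 and 10457 in CD144 positive cells and 8792 and 8534 in CD144 negative cells, with a 90% interval of the log2 fold change from -0.34 to 0.64. Epcam, the epithelial adhesion molecule, gave 8043 and 7253 in CD144 positive cells and 6737 and 7023 in CD144 negative cells. Transcripts of the epithelial cadherin and of the endothelial cadherin Cdh5 were therefore both measured in the CD144 positive population, and the share of cells that expressed each was not measured.

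Markers of other cell types were called in both directions, and in each of the cardiac, smooth muscle and fibroblast, endoderm and neuroectoderm lists more genes were not called than called. Of 17 cardiac genes 3 were higher and 3 were lower, and only 1 was higher without any 1 of the 4 arrays and 1 lower without CD144 negative replicate 2. Isl1, Gata6 and Tbx20, factors of cardiac progenitors, were the lower ones, with Gata6 at 520 and 472 in CD144 positive cells and 1353 and 1253 in CD144 negative cells, and the contractile genes Tnnt2, Actc1 and Myh6 were the higher ones. Of 20 smooth muscle and fibroblast genes 4 (Thy1, Vim, Acta2 and Tagln) were higher and 2 (Col1a1 and Cdh2) were lower. Vim, the intermediate filament of mesenchymal and endothelial cells, had signals of 23489 and 20801 in CD144 positive cells, against 6710 and 7102 in CD144 negative cells. Cdh2, N-cadherin, fell to 932 and 815 in CD144 positive cells, against 6270 and 5505 in CD144 negative cells. Col1a1, a defining fibroblast gene, was lower by 2.74 on the log2 scale, and Col3a1, another, was dim in both populations, at 71.6 and 32.6 in CD144 positive cells and 38.1 and 29.1 in CD144 negative cells. Thy1 gave 593 and 653 in CD144 positive cells and 135 and 181 in CD144 negative cells.

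Of 16 endoderm genes 2 (Apoa1 and Spink1) were higher and 3 (Cer1, Foxa2 and Foxa1) were lower. Foxa2 had signals of 339 and 430 in CD144 positive cells, against 1643 and 1820 in CD144 negative cells, and the visceral endoderm genes Afp and Ttr were not called. Of 16 neuroectoderm genes 2 (Sox1 and Tubb3) were higher and 2 (Sox11 and Fabp7) were lower. Sox1, at 58.8 and 93.1 in CD144 positive cells and 2.61 and 21.4 in CD144 negative cells, was dim, and Pax6 was not called. The neuroectoderm increases numbered 1 without either CD144 positive replicate or CD144 negative replicate 1.

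Genes of hypoxia and glycolysis depended on the scaling of the arrays. Of 21 genes 5 were higher and 7 were lower as deposited, and 1 was higher and 14 were lower after quantile normalisation. Without CD144 positive replicate 2 and CD144 negative replicate 1 in turn, 2 and 3 genes were higher. The lower genes as deposited were Ndrg1, P4ha1, P4ha2, Ero1a, Hk2, Kdm3a and Pdk1, with P4ha1, a collagen prolyl hydroxylase, at 656 and 545 in CD144 positive cells and 2020 and 1927 in CD144 negative cells. The glycolytic genes Aldoa and Ldha and the glucose transporter gene Slc2a1 were higher as deposited, whereas after quantile normalisation Aldoa and Slc2a1 were not called and Ldha was lower, at -0.45. Of 21 replication and mitosis genes 2 (Ccne1 and Pcna) were higher and 1 (Bub1) was lower as deposited, and 1 was higher and 6 were lower after quantile normalisation. Mki67, a marker of cycling cells, had signals of 4750 and 4957 in CD144 positive cells and 5552 and 5470 in CD144 negative cells.

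Of 20 immediate early and stress genes 7 were higher and 3 were lower, and the increases numbered 4 without CD144 positive replicate 2 and 2 without CD144 negative replicate 2. Gadd45g, a stress-induced growth arrest gene, had signals of 2969 and 2522 in CD144 positive cells, against 175 and 203 in CD144 negative cells. Fos, Fosb, Jun, Atf3, Zfp36 and Hmox1, which dissociation of cells can induce, were higher by 0.98 to 2.54, and Egr1, Ier2 and Dusp1 were not called. Both populations came from bodies that were dissociated before the cells were fixed and sorted, and the cause of the difference was not tested. Hspa1b and Hspa1a, inducible heat shock genes so alike that their probes cannot tell them apart with certainty, were lower. Hspa1b gave 289 and 464 in CD144 positive cells and 4236 and 4497 in CD144 negative cells.

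**Figure D4:**
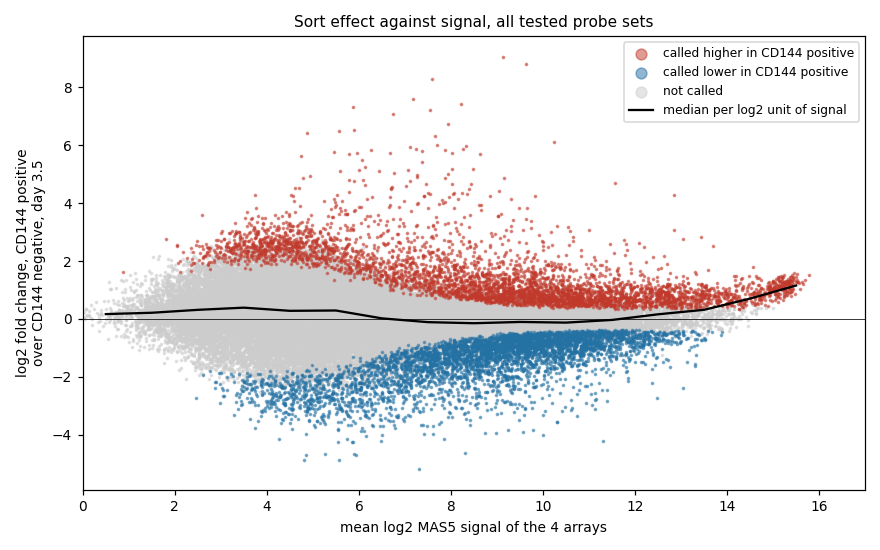
Log2 fold change of CD144 positive over CD144 negative cells at day 3.5 (vertical axis) against mean log2 signal of the 4 arrays (horizontal axis) for all 45037 probe sets, coloured by call, with the median of each signal bin as a line. The median lies at -0.15 for probe sets with a log2 signal between 8 and 9 and at 1.16 between 15 and 16.

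The fold change varied with signal over the whole array, as the plot against mean signal shows. The 450 brightest probe sets had a median log2 fold change of 0.82, with 335 called higher and 3 lower, and after quantile normalisation their median was 0.02, with 78 higher and 79 lower. The median of all probe sets was 0.097 as deposited and 0.023 after quantile normalisation. Among the bright genes of the lists, Slc2a3 and Ldha went from called higher to called lower with the scaling. Pgk1, Tpi1 and Pgam1 were not called as deposited, at 0.19, 0.16 and 0.04, and were called lower after quantile normalisation. In the endothelial and the primitive streak lists the only call that changed after quantile normalisation was that of Mcam, at 0.89 as deposited and 0.97 after it.

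The single probe sets with the largest increases belonged to genes of several kinds. Ctla2a and Ctla2b, which encode near-identical cysteine protease inhibitors and may share signal, gave 13964 and 15364 for Ctla2a in CD144 positive cells, against 22.9 and 20.3 in CD144 negative cells (log2 fold change 9.05 ± 0.27), and 4278 and 4617 for Ctla2b, against 18.2 and 22.0. Gimap4, a GTPase best known from lymphocytes, had 2653 and 2914 in CD144 positive cells and 8.80 and 17.5 in CD144 negative cells. Mmrn2, an endothelial matrix protein, gave 2710 and 3029 in CD144 positive cells, against 26.7 and 16.4 in CD144 negative cells. Clec1b, Icam2, Tie1 and Erg complete the group of 8.

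The largest decreases were of probe sets whose genes were less uniform. Ndrg1, a gene induced by hypoxia, had signals of 8.44 and 58.9 in CD144 positive cells, against 1085 and 1128 in CD144 negative cells, and all 5 of its probe sets were lower, between -5.18 and -2.22. Tnks2, a tankyrase, was lower in 3 of 3 probe sets, Cask, a scaffold kinase, in 3 of 4, and Mob1a and Cd36 in 2 of 3 each. Fscn1, the actin bundler fascin, was lower in 2 of 4 probe sets and higher in 1. Slc2a3, a glucose transporter, read 69.9 and 53.7 in CD144 positive cells, against 1657 and 1630 in CD144 negative cells, in the probe set with the largest decrease. Its brightest probe set was higher as deposited, with 26622 and 36291 in CD144 positive cells and 21640 and 21742 in CD144 negative cells, and lower after quantile normalisation, at -0.31. Hspa9, a mitochondrial chaperone, was lower in 3 of 5 probe sets, and the direction of Slc2a3, Fscn1 and Hspa9 as genes was therefore not settled.

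The sort effect of CD144 at day 3.5, that is the difference between CD144 positive and CD144 negative cells, was next set beside that of the other sorts, which share no arrays with it. Of the probe sets higher in the CD144 sort of day 3.5, 2717 were also called higher in the CD41 sort of that day, which is 63.6% of the CD144 calls and 44.8% of the CD41 calls. The overlap with CD144 positive cells of day 6.5 was 2379 probe sets, 55.6% of the calls of day 3.5 and 56.1% of those of day 6.5, and that with VEGFR2 positive cells of day 2.5 was 2218, 51.9 and 44.3%. Over all probe sets 13.5% were called higher in the CD41 sort, 9.42% in the CD144 sort of day 6.5 and 11.1% in the VEGFR2 sort. The sorts also had an array difference in common, since the hybridisation controls read between 5171 and 9079 on the positive arrays of all sorts and between 1830 and 2571 on the negative ones. The 450 brightest probe sets had medians of 0.65 in the CD41 sort, 0.56 in the CD144 sort of day 6.5 and 0.80 in the VEGFR2 sort, beside 0.82 in the CD144 sort of day 3.5, and the part of this shift in the overlaps was not tested. Opposite calls were fewest against day 6.5, where 31 probe sets higher in the day 3.5 sort were lower, and numbered 190 against CD41 and 171 against VEGFR2.

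Whether the sort effects themselves differed was tested with interaction terms. Against the CD41 sort of the same day, 1543 probe sets (3.43%) had a higher and 989 (2.2%) a lower effect in the CD144 sort, and of genes with 1 probe set each, 5.56% had a higher and 3.68% a lower effect. The total of 2532 probe sets was 1619 without CD144 negative replicate 1 and 1480 without CD144 negative replicate 2. Of the 27 pluripotency genes 25 had a higher effect in the CD144 sort and 1, Tbx3, a lower one, and of the 16 epithelial genes 13 had a higher effect. Zfp42 averaged 2534 in CD144 positive and 1135 in CD144 negative cells, against 239 in CD41 positive and 6904 in CD41 negative cells, and its sort effects differed by 6.01 ± 0.33 (adjusted p = 9.26e-09). Cdh1 averaged 9615 in CD144 positive and 8663 in CD144 negative cells, against 1482 in CD41 positive and 11150 in CD41 negative cells, a difference of 3.22 ± 0.40. For Zfp42 the means lay apart between the sorts in the negative as well as in the positive populations, and these gaps were not tested by themselves.

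Erythroid genes went the other way. Of 19 genes 16 had a lower effect in the CD144 sort and 0 a higher one, and of 20 early hematopoietic genes 9 had a lower and 0 a higher one (0 erythroid and 1 early hematopoietic gene higher at an unadjusted p under 0.05). Gata1 averaged 273 in CD144 positive and 87.4 in CD144 negative cells, against 4874 in CD41 positive and 77.7 in CD41 negative cells, a difference of the sort effects of -4.27 ± 0.43 (adjusted p = 7.16e-06). Tal1 averaged 3116 in CD144 positive and 211 in CD144 negative cells, against 8091 in CD41 positive and 58.7 in CD41 negative cells, a difference of -3.15 ± 0.26. The globin genes Hba-x, Hbb-y and Hbb-bh1 had the largest differences of the list, at -8.58, -6.23 and -6.00.

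In the endothelial surface list 5 of 40 genes, Tek, Mmrn2, Cldn5, Nos3 and Mcam, had a higher effect in the CD144 sort and 1, Kdr, a lower one. Kdr averaged 3879 in CD144 positive and 870 in CD144 negative cells, against 2505 in CD41 positive and 74.3 in CD41 negative cells, a difference of -2.77 ± 0.38. The difference for Cdh5 itself was not called (0.47, adjusted p = 0.712), and Cdh5 transcripts were also higher in the CD41 sort. In the transcription factor list 2 genes, Klf2 and Foxo1, had a higher effect, and 8, Fli1, Lyl1, Tal1, Gata2, Lmo2, Ets2, Nfatc1 and Hhex, a lower one. Notch4 and Nid1 had a higher effect, by 2.62 and 2.50, and Tgfb1 a lower one, by -4.05 ± 0.19.

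Of the 27 streak and mesoderm genes, 20 of which were lower in the CD144 sort of day 3.5, 12 were lower and 3 higher in the CD41 sort, where 17.2% of all genes were lower and 19.2% higher. In the VEGFR2 sort of day 2.5, 15 were higher and 1 lower, beside 16% of all genes higher and 13.7% lower. The medians of the list were -2.31 in the CD144 sort of day 3.5, -1.01 in the CD41 sort, -1.57 in the CD144 sort of day 6.5 and 1.26 in the VEGFR2 sort. In 10 genes, Mesp1, Msx2 and Pdgfra among them, the effect in the CD144 sort was lower than in the CD41 sort. In 2 genes, Nodal and Lefty2, the effect was higher. Mesp1 averaged 381 in CD144 positive and 1758 in CD144 negative cells, against 351 in CD41 positive and 241 in CD41 negative cells. In the same order Pdgfra averaged 98.8 and 1181, against 92.0 and 190, and Nodal 1151 and 3255, against 347 and 4123. For Mesp1 and Pdgfra the negative populations lay further apart than the positive ones, and these gaps were not tested by themselves.

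**Figure D5:**
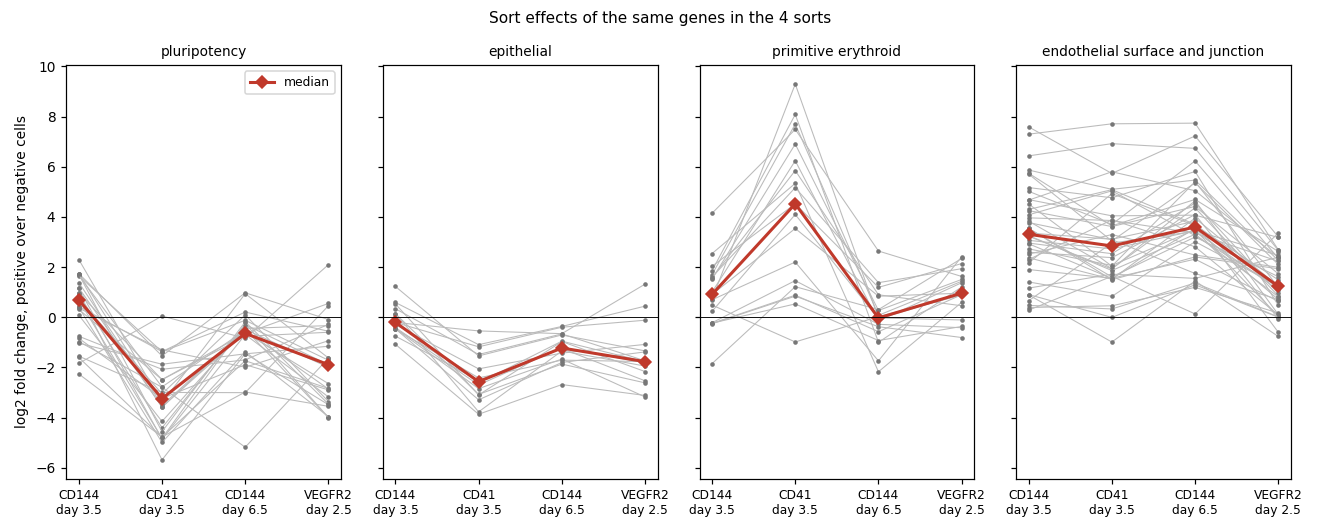
Log2 fold change of positive over negative cells (vertical axis) for pluripotency, epithelial, primitive erythroid and endothelial surface genes in the 4 sorts, with grey lines for single genes and diamonds for the medians. The pluripotency median is 0.69 in the CD144 sort of day 3.5 and -3.24 in the CD41 sort of that day, while the endothelial surface medians are 3.31 and 2.84.

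Against the CD144 sort of day 6.5 only 356 probe sets differed, 192 (0.426%) with a higher and 164 (0.364%) with a lower effect at day 3.5, and this count was 99, 93 and 95 without CD144 positive replicate 2, CD144 negative replicate 1 and CD144 negative replicate 2 in turn. By gene, 0.759% had a higher and 0.572% a lower effect. In limma 0 of the 40 endothelial surface genes were among them (2 higher and 8 lower at an unadjusted p under 0.05), although a difference that misses the threshold does not show that the effects were alike. Of 27 pluripotency genes 9 had a higher effect at day 3.5, Zfp42, Esrrb and Utf1 among them, and Fgf5, a gene of the primed epiblast, differed by 4.22 ± 0.66. Cdh1 differed by 2.01 ± 0.40, with a log2 fold change of 0.14 at day 3.5 and -1.86 at day 6.5.

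Blood genes differed in both directions between the days. Tal1 had a log2 fold change of 3.85 at day 3.5 and 2.12 at day 6.5 (difference 1.73 ± 0.26, adjusted p = 0.00453). Myb, Hbb-y, Hbb-bh1 and Hemgn also had a higher effect at day 3.5. A higher effect is not a higher signal: Hbb-bh1 averaged 2127 in CD144 positive and 651 in CD144 negative cells at day 3.5, against 26563 and 25006 at day 6.5. Hemgn was dim, at 38.5 and 1.56 at day 3.5 and 8.32 and 62.5 at day 6.5 in the same order. Fcer1g and Cd52, genes of myeloid and lymphoid cells, had a lower effect at day 3.5, by -7.35 and -2.92, and Tgfb1 did so by -1.46. Among mesoderm genes Cdh11 differed by -2.81 and Pdgfra by -1.72, while Mixl1 differed by 1.72, with -3.19 at day 3.5 and -4.90 at day 6.5.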

How the data were processed

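Each deposited value is a linear intensity, the MAS5 signal of a probe set on an Affymetrix Mouse Genome array, which the authors had scaled on each array to a trimmed mean of 500 between the 2nd and 98th percentiles. The study's own lists came from other software and were not used. RNA was taken from fixed, sorted cells and labelled as biotinylated cRNA.

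Of 45101 probe sets, 64 controls were left out. Among the rest 34945 had 1 symbol, 932 had several and 9160 had none. Before the log2 transform 6.03, the 10th percentile of the signals, was added. All 16 arrays in 8 populations were fitted in limma 3.58.1 (R 4.3.3) with lmFit and eBayes with a trend, contrasts gave each sort effect and the differences between sort effects, and Benjamini-Hochberg adjustment ran over all 45037 probe sets, with a threshold of 0.05. The number of arrays limits the precision, and detection calls were not used here. Figures were drawn with matplotlib 3.10.9 in Python 3.11.15.

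Named are Cdh5, in each direction the 8 most changed called probe sets of 1 gene with a mean in the higher population above 85.8 (the median of all values) and no overlap, up to 3 called members of each list, and genes the study named. Other genes were added from the lists as examples, after their values were seen. The members and gene lists were chosen with earlier results of these data known. List symbols with no probe set of their own were left out. Alternatives were quantile normalisation, offsets of 1 and 23.4, a floor, leaving out dim probe sets, a fit of the compared populations only, a robust fit without trend, a replicate block and leaving out each array. Replicate numbers did not pair the arrays.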

Additional observations from a re-analysis of the deposited data

Results flagged for a closer look

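These results stand out because the effect of the CD144 sort at day 3.5 differed from that of another sort in a test of the difference itself, the interaction term of the fit (limma, adjusted p under 0.05). Values in parentheses are that difference on the log2 scale, CD144 at day 3.5 minus the other sort. No explanation was tested. Groups of 2 arrays were too small for a test of single outlying arrays.

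Against the CD41 sort of the same day 32 of the 93 named probe sets differed, 18 with a higher and 14 with a lower effect in the CD144 sort. Over all probe sets 3.43% had a higher and 2.2% a lower effect. Many named probe sets were picked for a large CD144 effect, which is part of the difference tested. Their count is therefore not a result about them as a group. Among endothelial and signalling genes the effect was higher for Mmrn2 (2.56), Tek (2.10), Cldn5 (1.89), Notch4 (2.62), Ctla2a (1.39), Col18a1 (1.16) and Itga1 (2.69), and lower for Kdr (-2.77), Fli1 (-1.70) and Itga8 (-2.87). The transcription factors Klf2 (2.96), Foxp1 (2.32) and Sox11 (1.23) had a higher effect. Of these Klf2 and Foxp1 had opposite signs in the sorts, at 1.33 and 0.94 in the CD144 sort and -1.63 and -1.38 in the CD41 sort. Klf2 averaged 1291 in CD144 positive and 508 in CD144 negative cells, against 801 in CD41 positive and 2488 in CD41 negative cells. In the same order Foxp1 averaged 1337 and 698, against 543 and 1421. The negative populations of the sorts thus lay apart as well as the positive ones, and these gaps were not tested by themselves.

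Of the blood genes Cbfa2t3 (-1.23), Itga2b (-1.79), Gypc (-2.49), Nfe2 (-3.34) and Csf2rb (-3.40) had a lower effect. The pluripotency genes Dppa3 (5.72) and Lefty1 (2.51) had a higher effect and Tbx3 (-1.89) a lower one. Dppa3 was at 2.30 in the CD144 sort and -3.41 in the CD41 sort. Its signal averaged 1313 in CD144 positive and 262 in CD144 negative cells, against 137 in CD41 positive and 1400 in CD41 negative cells. The epithelial genes Esrp1 (2.79), Rab25 (2.77) and Krt18 (1.68) and the genes Sox1 (4.19), Thy1 (3.51) and Tubb3 (3.46), markers of neural cells or, for Thy1, of fibroblasts and T cells, also had a higher effect. The mesoderm and cardiac genes Wnt5a (-2.39), Pdgfra (-2.48), Isl1 (-3.25) and Gata6 (-1.75) and the heat shock gene Hspa1b (-1.46) had a lower effect. Isl1 was at -2.03 in the CD144 sort and 1.22 in the CD41 sort. Its signal averaged 79.3 in CD144 positive and 325 in CD144 negative cells, against 49.6 in CD41 positive and 19.3 in CD41 negative cells.

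Against the CD144 sort of day 6.5, 6 of the 93 named probe sets differed. Over all probe sets 0.426% had a higher and 0.364% a lower effect at day 3.5, and the same limit of selection holds. The effect at day 3.5 was higher for Hemgn (4.71), Rab25 (1.94) and Esrp1 (1.60), and lower for Pdgfra (-1.72), Ndrg1 (-1.60) and Hspa1b (-1.57). Hemgn, an erythroid nuclear protein, was at 2.54 at day 3.5 and -2.17 at day 6.5, and its call at day 3.5 was lost under at least 1 alternative.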

How the results depend on the processing

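The count of called probe sets, 9023, ranged from 4675 to 7584 when 1 of the 4 arrays was left out, in a fit that takes the lone array to vary like the other populations, and kept within 1.5 times under the other alternatives (6383 to 9402). The count past the 90% bound, 2924, was 1877 with dim probe sets left out. The count that differed from the CD41 sort, 2532, was 1378 in the robust fit without trend and 1480 to 2242 with 1 array left out. The count that differed from the CD144 sort of day 6.5, 356, was 628 with a floor, 546 with dim probe sets left out, 36 in the robust fit and 93 to 356 with 1 array left out. The causes were not tested, beside the fewer probe sets or arrays in some of these fits. With the replicate number as a block, 9152 probe sets were called, 2970 passed the bound, and 2611 and 422 differed from the CD41 and day 6.5 sorts, but the numbers share no more than a name, since deviations of same-numbered arrays of CD144 positive and CD144 negative cells correlated at 0.007.

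Of 93 named probe sets 92 were called, 79 kept the call and its direction under all 12 alternatives, and 13 (Hemgn, Tnnt2, Isl1, Col1a1, Foxa1, Apoa1, Sox1, Rab25, Krt18, Ccne1, Pcna, Nog and Efna1) lost it under at least 1. None of these 93 probe sets changed direction under these alternatives. Other list genes given as examples are not in these counts. Of those, Ldha, Aldoa and the brightest probe set of Slc2a3 changed direction after quantile normalisation. Prox1, Ermap and Mcam lost a call under at least 1 alternative. With 2 arrays for each population, and signals of a few units on some of them, the size of a change at low signal depends on the value added before log2.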

Other observations

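Gene families outside the lists were looked at by symbol, after their values had been seen, and are given as descriptions. Over all genes 13.7% were higher and 10.3% were lower as deposited, and the family counts are read against these shares. Of 8 measured Gimap genes, which encode GTPases best known from lymphocytes, 5 were higher in CD144 positive than in CD144 negative cells and 0 were lower, with a median log2 fold change of 3.50. Gimap6 had signals of 519 and 516 in CD144 positive cells and 3.47 and 3.92 in CD144 negative cells, and Gimap8 gave 536 and 420 in CD144 positive cells, against 1.56 and 34.9 in CD144 negative cells. Of 22 adhesion G protein-coupled receptors 7 were higher and 1, Adgrl2, was lower. Adgra2, the receptor Gpr124 of brain vessels, had 1592 and 1734 in CD144 positive cells, against 78.8 and 58.3 in CD144 negative cells, and Adgrf5 and Adgrl4, receptors of endothelium, were higher by 4.01 and 2.81.

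Of 33 Hox genes 7 were higher and 1, Hoxb1, was lower. Hoxb5 had signals of 258 and 327 in CD144 positive cells, against 24.2 and 20.5 in CD144 negative cells, while Hoxb1, the most anterior gene of its cluster, gave 150 and 102 in CD144 positive cells and 320 and 287 in CD144 negative cells. Of 9 beta-tubulin genes, the pseudogene Tubb2a-ps2 (not called) included, 7 were higher and 0 were lower. Tubb5, among the higher ones, had 27148 and 31118 in CD144 positive cells and 18231 and 19474 in CD144 negative cells. Of 4 metallothionein genes 3 were higher as deposited and 1 after quantile normalisation. The counts of higher genes after quantile normalisation were 5 for Gimap genes, 5 for adhesion receptors, 8 for Hox genes and 6 for beta-tubulins.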
